A study of Mus musculus with 12 samples.

Results

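Epithelial and endodermal transcripts of the teratoma group are described here as 10 genes, picked out of 23284 gene symbols in the deposited table by their symbols: the keratins Krt8, Krt18 and Krt19, the adhesion genes Epcam and Cdh1, the claudins Cldn4 and Cldn6, the secreted carrier proteins Ttr and Alb, and the gut lectin Reg3g. They were chosen by their FPKM in the teratoma libraries, so every difference between teratoma and another group is given for them as a description, with no test. The cells came from mice in 4 groups of 3 libraries, all carrying the strain label 129P2/OlaHsd, and were sorted for α7-integrin and VCAM with CD31 and CD45 cells left out. The transplant group was sorted again from tibialis anterior muscle, 1 month after that muscle had received sorted teratoma-derived cells. The teratoma group came from teratomas 3 weeks old, which are tumours of mixed tissue formed by pluripotent stem cells. The adult group came from the hindlimbs of 8-week-old males and the embryo group from whole embryos at E14.5. The gate is meant to hold muscle progenitors, so epithelial and endodermal transcripts were followed as non-muscle content, and the transplant group shows which of them were seen after residence in muscle. Whether they came from other cells in the sort or from the progenitors themselves was not tested. The labels name neither the host animals nor the stem cell line, and host cells in the transplant sort cannot be told apart from donor cells. Values are FPKM, which scale the sequenced fragments of a gene by its transcript length and by the library's total, so levels of different genes can be set side by side. In bulk RNA, fewer cells of a type and less RNA per cell cannot be told apart.

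As background, epithelial cells line surfaces and glands, and are held together by E-cadherin at adherens junctions, by claudins at tight junctions and by EpCAM along the lateral membrane. Their cytoskeleton is made of keratins, which pair as a type II chain (keratin 8) with a type I chain (keratin 18 or 19) in simple, single-layered epithelia. Endoderm is the germ layer of gut, liver, pancreas and airway, and its liver and visceral yolk sac derivatives secrete transthyretin and albumin. Transthyretin is also made by the choroid plexus, an epithelium of brain and so not endodermal, while satellite cells of muscle are mesodermal and have no epithelial junctions of this kind. Teratomas form tissue of all germ layers.

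The start regions of 4 members from both keratin and adhesion classes are shown with one E-box type, because the Snail and Zeb factors that shut down Cdh1 in mesenchymal cells bind it. RefSeq promoters on GRCm38.p6, 250 bases before to 50 after the start, were found for 7 members (Krt8, Krt18, Epcam, Cldn4, Cldn6, Reg3g and Alb). Capitals mark CACCTG or its reverse complement CAGGTG in 4 of them, each written 5′ to 3′ on the strand of its gene.
Krt8, chr15:102004293-102004592, reverse strand: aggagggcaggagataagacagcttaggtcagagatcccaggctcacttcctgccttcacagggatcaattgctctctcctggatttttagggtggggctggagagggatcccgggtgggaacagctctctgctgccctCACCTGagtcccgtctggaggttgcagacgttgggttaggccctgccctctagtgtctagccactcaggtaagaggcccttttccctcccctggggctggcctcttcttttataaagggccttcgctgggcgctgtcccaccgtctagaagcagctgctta
Krt18, chr15:102027966-102028265, forward strand: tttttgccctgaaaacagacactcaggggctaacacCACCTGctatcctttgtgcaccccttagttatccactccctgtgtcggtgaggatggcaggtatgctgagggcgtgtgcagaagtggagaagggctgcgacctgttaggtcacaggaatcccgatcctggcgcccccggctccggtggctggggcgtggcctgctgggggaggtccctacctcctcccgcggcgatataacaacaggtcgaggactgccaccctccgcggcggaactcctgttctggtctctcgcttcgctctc
Epcam, chr17:87635729-87636028, forward strand: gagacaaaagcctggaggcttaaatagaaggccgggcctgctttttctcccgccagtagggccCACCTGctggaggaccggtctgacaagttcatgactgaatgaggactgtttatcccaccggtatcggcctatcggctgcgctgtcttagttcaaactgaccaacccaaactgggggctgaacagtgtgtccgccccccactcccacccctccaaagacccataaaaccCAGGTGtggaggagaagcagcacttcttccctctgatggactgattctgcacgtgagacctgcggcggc
Cldn4, chr5:134946885-134947184, reverse strand: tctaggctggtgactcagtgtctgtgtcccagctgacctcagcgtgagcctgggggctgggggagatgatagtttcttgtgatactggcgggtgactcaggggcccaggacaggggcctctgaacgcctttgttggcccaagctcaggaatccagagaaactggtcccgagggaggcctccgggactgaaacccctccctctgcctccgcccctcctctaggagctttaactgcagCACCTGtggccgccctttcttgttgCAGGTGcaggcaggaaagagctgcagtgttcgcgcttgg
The motif was in 5 of the 7 member promoters, those of Cldn6 included, and in 6640 of all 32851 promoters (20.2%). The 8-letter core AACNGGTT of Grainyhead-like factors, which keep epithelia epithelial, was in 0 of the 7 and in 2.09% of all promoters on either strand. GTTAAT, part of the site of the liver factor HNF1, was in 1 of the 7, that of Alb, and in 7.1% of all. TATAAA was in 2 of the 7, those of Krt8 and Reg3g, and in 13.6% of all. These motifs were chosen after the sequences had been seen, none of the 4 is contained in another, and a match is a string of letters and not a site in use.

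The libraries held the labelled cells. Itga7, for the α7-integrin of the gate, ran from 9.73 FPKM in embryo replicate 2 to 62.6 in adult replicate 3, and Pax7, the satellite cell factor, from 8.24 in adult replicate 1 to 54.8 in transplant replicate 3. Between 9495 (adult replicate 1) and 12000 genes (teratoma replicate 1) reached 1 FPKM. In embryo replicate 2, 74 genes were listed at 0 although the other embryo libraries had at least 5 FPKM of them; that number was 6 to 27 elsewhere. A 0 is therefore given as listed and may be a failed estimate.

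All 10 genes were present in teratoma and almost missing from transplant. Their summed level was 0.141, 0.0963 and 0.435 FPKM in the transplant libraries, 654, 716 and 225 in the teratoma libraries, 0.634, 1.99 and 1.31 in the adult libraries and 4.57, 11.3 and 26.0 in the embryo libraries. The lowest teratoma sum was 517 times the highest transplant sum, 113 times the highest adult sum and 8.67 times the highest embryo sum. Of the 10 genes, 6 were listed at 0 in all 3 transplant libraries (Epcam, Cldn4, Cldn6, Ttr, Reg3g and Alb), and all 10 were under 1 FPKM in each of them. For 9 of the 10, every teratoma library was above all 9 others, which held for 4.4% of the 12699 genes tested, and the exception was Cldn6. The teratoma libraries were all above the transplant libraries for 10 genes (32.2% of genes tested), above the adult libraries for 10 (45.6%) and above the embryo libraries for 9 (20%). At least 1 FPKM in every teratoma library with under 1 in every transplant library held for 9, and for 3.95% of genes tested. These counts follow from how the genes were picked and support nothing.

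**Figure D1:**
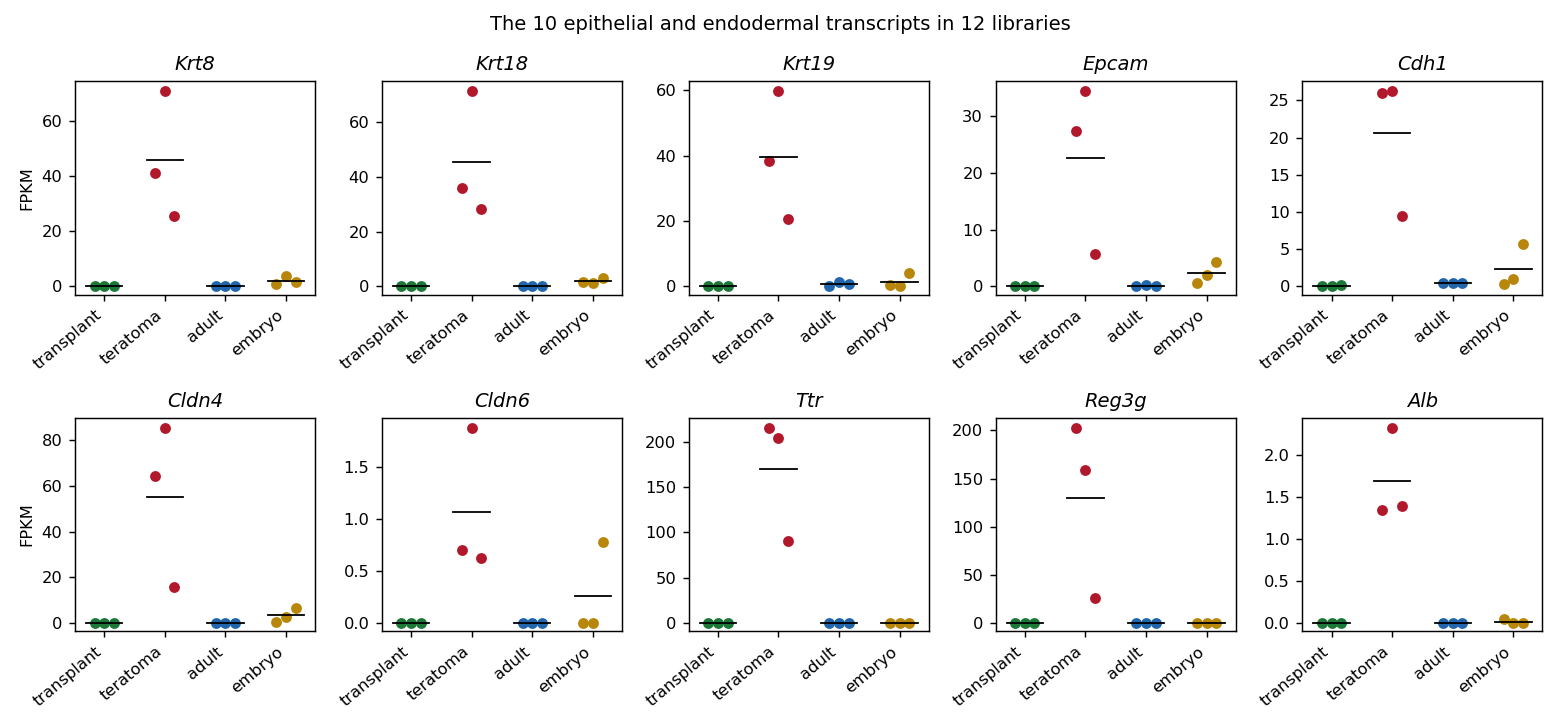
FPKM of each of the 10 genes (vertical axes, linear, each panel with its own range) in the transplant, teratoma, adult and embryo groups, left to right; points are libraries in replicate order and lines are group means. Teratoma points stand above all others in every panel but that of Cldn6, where embryo replicate 3 at 0.786 FPKM lies above 2 of the teratoma libraries.

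The keratins of simple epithelia were high in teratoma and close to equal to each other there. Krt8, the type II chain (chromosome 15 from 101996698 to 102004482 on mm10, reverse strand), was at 0, 0.0963 and 0.147 FPKM in transplant, 41.1, 70.8 and 25.6 in teratoma, 0 in all 3 adult libraries and 1.06, 3.62 and 1.48 in embryo. Krt18, its type I partner (chromosome 15 from 102028180 to 102032027, forward strand), was at 0.0583, 0 and 0 in transplant, 36.1, 71.5 and 28.4 in teratoma, 0.0582, 0 and 0 in adult and 1.59, 1.41 and 2.93 in embryo. Teratoma was the highest group for both and embryo the next, without overlap, while adult and transplant shared values at or near 0. The ratio of Krt8 to Krt18 in the teratoma libraries was 1.14, 0.990 and 0.901, so the partner chains had nearly the same level in each. The genes are neighbours, 23697 bases apart, and RefSeq lists a Krt8 pseudogene, Krt8-ps, that could share reads. A long noncoding RNA on the opposite strand, Gm36026, overlaps Krt8 by 271 bases, and whether counting used strand is not given in the sources used here.

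Krt19, another type I chain of simple epithelia and glands (chromosome 11 from 100140810 to 100148665), was at 0.0826, 0 and 0.0850 FPKM in transplant, 38.3, 59.9 and 20.5 in teratoma, 0, 1.32 and 0.720 in adult and 0.387, 0 and 3.98 in embryo. The adult and embryo libraries overlapped, and 1 adult library reached 1 FPKM, which Krt8 and Krt18 did not do there. Krt8 exceeded Krt19 by 1.07, 1.18 and 1.25 times in the teratoma libraries. Means in teratoma were 45.8 ± 23.0 FPKM for Krt8, 45.3 ± 23.0 for Krt18 and 39.6 ± 19.7 for Krt19 (SD, n = 3), with the second library the highest and the third the lowest each time.

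Both adhesion genes were lowest in the third teratoma library, with a coefficient of variation of 66.3% for Epcam and 46.8% for Cdh1, against 49.8% to 50.7% for the 3 keratins. Epcam, a lateral membrane adhesion protein of most simple epithelia (chromosome 17 from 87635979 to 87651129), was listed at 0 in all transplant libraries and at 27.4, 34.4 and 5.76 FPKM in teratoma, against 0.0558, 0.229 and 0.122 in adult and 0.663, 2.05 and 4.36 in embryo. Cdh1, which encodes E-cadherin (chromosome 8 from 106603351 to 106670246), was at 0, 0 and 0.203 in transplant and 26.0, 26.3 and 9.46 in teratoma, against 0.520, 0.439 and 0.466 in adult and 0.321, 1.03 and 5.67 in embryo. In teratoma replicate 3 both were well below the other teratoma libraries yet above every library of the other groups. Adult values of Cdh1 were low but even, and they overlapped those of embryo, whose replicate 1 was lower than all of them. The ratio of Epcam to Cdh1 was 1.05, 1.31 and 0.609 in the teratoma libraries.

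The claudins of the set had very different levels. Cldn4, a tight junction claudin of many epithelia (chromosome 5 from 134945119 to 134946934), was listed at 0 in all transplant libraries and at 64.7, 85.7 and 15.8 FPKM in teratoma, against 0 in all adult libraries and 0.497, 2.92 and 6.77 in embryo. Cldn6, a claudin of embryonic and early epithelial cells (chromosome 17 from 23679249 to 23682446), was likewise listed at 0 in transplant and adult, at 0.709, 1.88 and 0.632 in teratoma and at 0, 0 and 0.786 in embryo. Cldn4 was thus among the more abundant of the 10 genes in teratoma, at 55.4 ± 35.8 FPKM, while Cldn6, at 1.08 ± 0.702, never passed the filter of 1 FPKM in 3 libraries. Over all 26 claudin genes of the table the sum was 35.9, 29.9 and 39.8 in transplant, 161, 199.9 and 97.7 in teratoma, 112, 94.0 and 96.9 in adult and 47.7, 55.7 and 66.0 in embryo. Claudins other than the members therefore kept adult libraries close to teratoma replicate 3 in that sum.

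Among the secreted genes, Ttr was the most abundant of the 10 members in teratoma and Alb was near the low end. Ttr, for the thyroid hormone and retinol carrier transthyretin (chromosome 18 from 20665280 to 20674321), was listed at 0 in all 9 transplant, adult and embryo libraries and at 216, 204 and 91.0 FPKM in teratoma. Alb, for albumin (chromosome 5 from 90460897 to 90476602), was listed at 0 in transplant and adult, at 1.35, 2.32 and 1.40 in teratoma and at 0.0521, 0 and 0 in embryo. Ttr therefore exceeded Alb by 160.2, 87.7 and 65.1 times in the teratoma libraries, although both are plasma carriers of liver. Reg3g, an antibacterial C-type lectin that gut epithelium secretes (chromosome 6 from 78466269 to 78468872), was listed at 0 in transplant and adult, at 203, 159 and 26.5 in teratoma and at 0, 0.252 and 0 in embryo. Its ratio to Ttr was 0.942, 0.782 and 0.291. These 3 genes passed the expression filter through the teratoma libraries alone, with no other library at 1 FPKM. Krt19, Epcam, Cdh1 and Cldn4 reached 1 FPKM in fewer than 3 libraries outside teratoma, so they needed teratoma to pass as well. Of the members, only Krt8 and Krt18 would have passed without it.

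The teratoma libraries were not alike in this content. Replicate 3 was the lowest of the 3 for 9 of the 10 genes, replicate 1 for Alb, and replicate 2 was the highest for 8, with replicate 1 highest for Ttr and Reg3g. The level in replicate 3 divided by the mean of replicates 1 and 2 ran from 0.146 for Reg3g to 0.761 for Alb, with 0.187 for Epcam, 0.210 for Cldn4, 0.362 for Cdh1 and 0.458 for Krt8. It was 0.6 or less for 9 of the 10 genes. The share was 11.9% among the 10477 tested genes with at least 1 FPKM in every teratoma library, whose median was 0.888. Cldn6 is among the 9 but lies outside that base. Replicate 3 was the lowest teratoma library for 44.7% of tested genes. In the same library the 10 leukocyte genes summed to 163 FPKM, against 65.3 and 57.5 in teratoma replicates 1 and 2, and whether the makeup of the tumours differed was not tested. Depth could not be read from the table, so its part is not known.

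**Figure D2:**
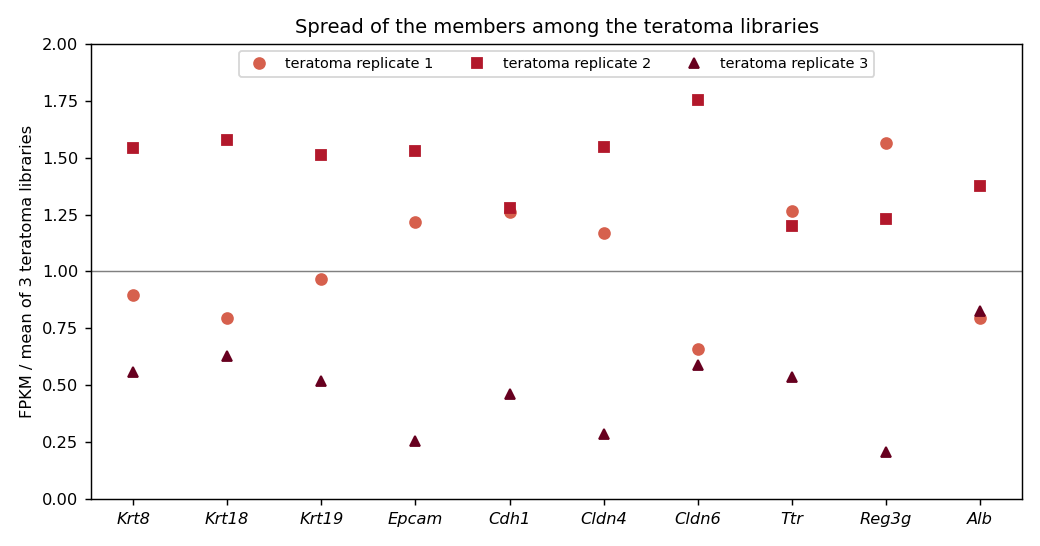
Level of each of the 10 genes in the 3 teratoma libraries as a ratio to the mean of the 3 (vertical axis, linear, no unit), with the genes along the horizontal axis. Replicate 3 is the lowest for every gene but Alb, and Epcam, Cldn4 and Reg3g fall lowest in it.

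In transplant against adult, none of the 9 genes tested was called (limma, adjusted p at least 0.415) and 0 had an unadjusted p under 0.05, where 44.2% of all genes were called, 16.9% lower and 27.3% higher. The lowest adjusted p was that of Krt19, with a log2 change of -0.59 (SE 0.56, n = 3 each). For Ttr, Reg3g, Alb and Cldn4 both groups were listed at 0 throughout, so no change could be had. For Cdh1 the 3 transplant values, 0, 0 and 0.203, lay below the 3 adult values and the log2 change was -0.47 (SE 0.52, adjusted p = 0.492). A p that misses the threshold does not show that the groups are alike, and with no value above 1.32 FPKM in either group, little difference could have been seen.

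In transplant against embryo, 4 of the 9 tested genes were called lower and none higher (0 at an unadjusted p under 0.05), where limma called 42.5% of all genes and 27.6% lower. Krt18 fell by 1.51 on the log2(FPKM + 1) scale (SE 0.32, limma adjusted p = 0.00253) and Krt8 fell by 1.41 (SE 0.37, adjusted p = 0.00869), each with all transplant libraries below all embryo libraries. Cldn4 fell by 1.84 (SE 0.61, adjusted p = 0.0289) and Epcam fell by 1.59 (SE 0.55, adjusted p = 0.0353). Cldn4 and Epcam, unlike the 2 keratins, passed the filter only with the help of the teratoma libraries. The Cldn4 and Epcam calls were lost when any of 5 libraries was left out. Without embryo replicate 3 the log2 change was -1.28 for Cldn4 (adjusted p = 0.120) and -1.17 for Epcam (adjusted p = 0.135), and without embryo replicate 2 it was -1.77 for Cldn4 (adjusted p = 0.0629) and -1.58 for Epcam (adjusted p = 0.0667). Leaving out transplant replicate 1, 2 or 3, all at 0 for both genes, did not move the change and left fewer samples, with adjusted p of 0.0656, 0.0642 and 0.0638 for Cldn4 and 0.0773, 0.0752 and 0.0753 for Epcam. Over all alternatives the adjusted p ran from 0.00136 to 0.120 for Cldn4 and from 0.00111 to 0.135 for Epcam. Cdh1 was not called (log2 change -1.30, adjusted p = 0.0631), nor were Krt19 (-0.85, adjusted p = 0.240), Reg3g, Alb and Ttr (adjusted p at least 0.898). Embryo replicate 3 held the highest embryo value for 6 of the members, and for 48.7% of all tested genes.

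To see whether the members stood for wider epithelial programmes, 130 other measured genes in 8 lists were read beside them, here called the panel. The lists, like the members, were chosen with results of these data known. Of the 130, 60 passed the filter, 12 of these through the teratoma libraries alone, with no other library at 1 FPKM. Such genes had to differ, so their calls support nothing, and each count below is also given without them. Genes that reached 1 FPKM in fewer than 3 libraries outside teratoma, such as Foxa1 and Agr2, also needed teratoma to pass. They stay in the counts without the 12, and in those of each list below. Such counts are therefore not free of the filter and are a description. In transplant against teratoma, limma called 40 of the 60 lower and 0 higher at adjusted p under 0.05, against 22.6% called among all 12699 genes, 18.5% lower and 4.18% higher. At an unadjusted p under 0.05, again 0 were higher. Without the 12 genes, 28 of 48 were lower. The median log2 change of the 60 was -1.69, and that of all genes was -0.28, or -0.02 under median-ratio scaling. In all 3 transplant libraries 58 of the 130 genes were listed at 0, and 99 were under 1 FPKM. The count fell to 20 without teratoma replicate 1 and 17 without teratoma replicate 2, when 44 panel genes reached the filter. With the genes of the full filter kept, it was 32 and 30.

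In teratoma against adult, 51 of the 60 panel genes were called higher and 1 lower, against 36.4% and 8.94% of all genes (45.4% in all), and 39 of 48 were higher without the 12. The median log2 change was 1.76, and 0.50 over all genes, or 0.24 under median-ratio scaling. The count of either direction was 30 without teratoma replicate 1 and 30 without teratoma replicate 2. In teratoma against embryo, 40 were called higher and 0 lower (1 at an unadjusted p under 0.05), against 15.5% and 10.6% of all genes (26% in all), and 28 of 48 were higher without the 12. The median was 1.56, and 0.01 over all genes, and the count was 24 without teratoma replicate 1 and 21 without teratoma replicate 2. Both comparisons and the one before share the teratoma libraries, so their counts are not independent.

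**Figure D3:**
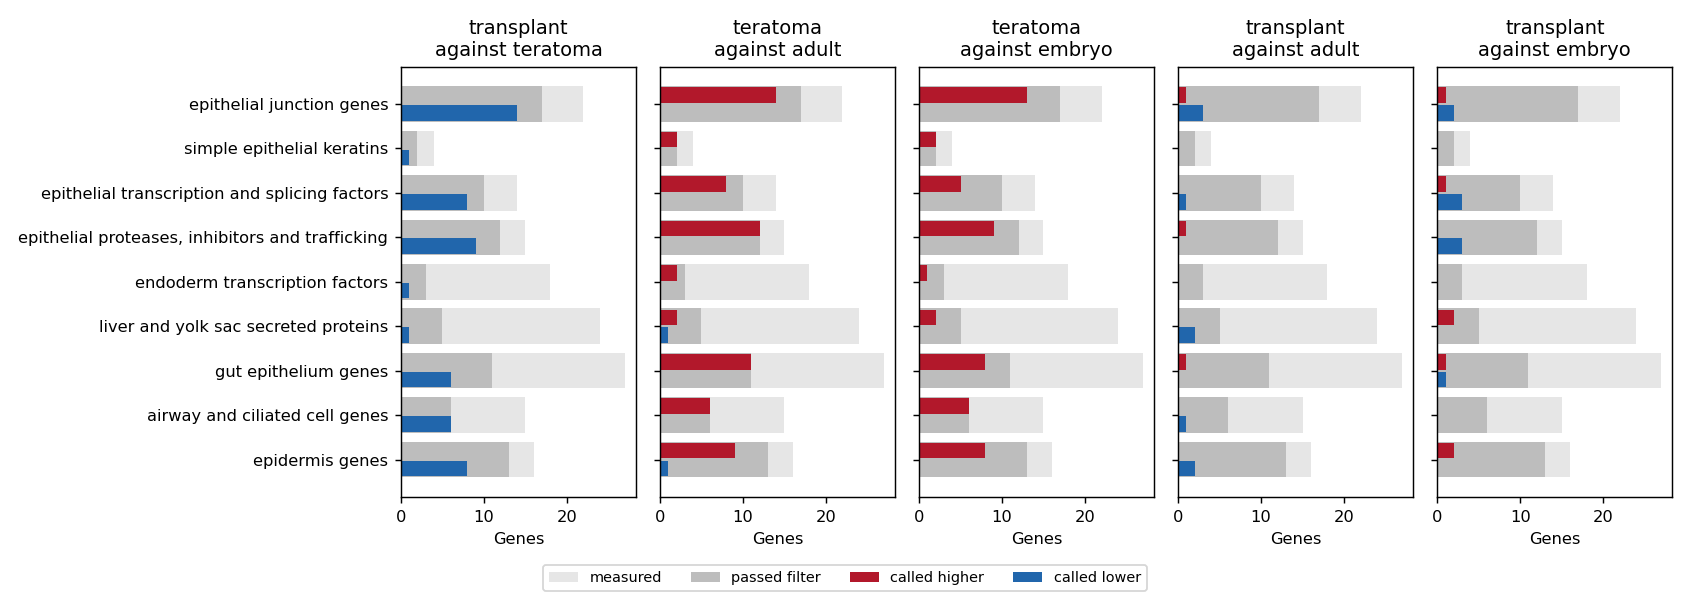
For 9 lists (rows), the number of genes measured (light grey), the number that passed the filter (dark grey) and the numbers limma called higher (red) or lower (blue) at adjusted p under 0.05, in 5 comparisons (columns; horizontal axes, genes). Columns with teratoma hold most calls. The airway and epidermis rows are not part of the panel. Over the panel alone, 40 genes were lower in transplant against teratoma, and 3 were higher and 6 lower in transplant against adult.

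Of 22 junction genes measured, 17 passed the filter, 14 were lower in transplant than in teratoma, 14 were higher in teratoma than in adult and 13 were higher in teratoma than in embryo. Without the 2 that passed through teratoma alone, these counts were 12, 12 and 11 of 15, beside 18.5%, 36.4% and 15.5% of all genes. Cldn3, the tight junction claudin next to Cldn4 at a distance of 39279 bases, was listed at 0 in transplant and adult and at 9.36, 8.73 and 2.57 FPKM in teratoma, and passed the filter through teratoma alone. Ocln, for occludin, was listed at 0 in transplant and at 7.42, 4.96 and 4.82 in teratoma (limma adjusted p = 3.45e-05). Ocln needed the teratoma libraries to pass the filter, so this call supports nothing. F11r, for the junctional adhesion molecule JAM-A, was at 0.746, 0.258 and 0.261 in transplant and 8.64, 10.8 and 5.24 in teratoma, a log2 change of -2.67 (SE 0.33, adjusted p = 0.000278). Jup, for plakoglobin, was the exception in level, at 18.4, 17.3 and 20.7 in transplant and 15.8, 17.9 and 11.5 in teratoma, and was not called between them. It is shared by desmosomes and classical cadherin junctions, those of muscle cells included, and was singled out after its values were seen.

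Other keratins were described next. Krt7, the type II chain of ducts and glands, was listed at 0 in transplant and at 12.7, 16.5 and 5.17 FPKM in teratoma, against 0, 0.0650 and 0 in adult and 0.106, 0.867 and 0.234 in embryo. Krt20 and Krt23, keratins of gut epithelium and of glands, were below the filter, at 6.19, 5.25 and 0.223 and at 8.85, 8.17 and 0.930 in teratoma, and both were listed at 0 in transplant. They were named after their values were seen, and both were near absent from teratoma replicate 3. Krt80 was at 0.505, 1.72 and 1.05 in transplant and 1.42, 1.96 and 1.14 in teratoma and was not called between these groups. Over all 51 keratin genes the sum was 2.69, 16.5 and 3.13 in transplant, 282, 382 and 114 in teratoma, 0.652, 2.12 and 1.72 in adult and 8.63, 13.3 and 45.8 in embryo. The 3 member keratins are part of these sums, which are therefore a description.

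Factors that set the epithelial state were lower in transplant for 8 of the 10 that passed the filter, higher in teratoma than in adult for 8 and higher than in embryo for 5. Without the 2 that passed through teratoma alone, these counts were 6, 6 and 3 of 8, beside 18.5%, 36.4% and 15.5% of all genes. Elf3, an ETS factor of epithelia, was listed at 0 in transplant and adult, at 10.05, 11.5 and 7.42 FPKM in teratoma and at 0.733, 0 and 0.0564 in embryo. Its relative Ehf was at 0, 0.0870 and 0.0555 in transplant and 4.89, 6.04 and 2.84 in teratoma, and both passed the filter through teratoma alone. Klf5, a factor of epithelial proliferation, was abundant in every group. It averaged 51.3 ± 11.9 FPKM in transplant, 116 ± 36.3 in teratoma, 34.0 ± 10.3 in adult and 14.6 ± 5.10 in embryo (SD, n = 3). Its change in transplant against teratoma was -1.15 (SE 0.30, limma adjusted p = 0.0191). That call was lost without transplant replicate 1, teratoma replicate 1 or teratoma replicate 2 (adjusted p = 0.0800, 0.0898 and 0.0506, alternatives from 0.0140 to 0.0898). In transplant against embryo Klf5 rose by 1.76 (SE 0.30, adjusted p = 0.000623).

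The fourth pan-epithelial list holds surface proteases, their inhibitors and trafficking genes. Of 12 that passed the filter, 9 were lower in transplant than in teratoma, 12 higher in teratoma than in adult and 9 higher than in embryo. Without the 4 that passed through teratoma alone, these counts were 5, 8 and 5 of 8, beside 18.5%, 36.4% and 15.5% of all genes. Spint2, a Kunitz inhibitor of such proteases, was at 0.239, 1.42 and 0.242 FPKM in transplant and 14.3, 30.3 and 10.6 in teratoma, a log2 change of -3.52 (SE 0.48, limma adjusted p = 0.000452). Prss8, a protease it acts on, was listed at 0 in every library outside teratoma, where it had 1.69, 4.47 and 2.51. Cd24a, a surface glycoprotein of epithelial and many immature cells, was at 4.83 ± 0.261 in transplant, 79.5 ± 31.1 in teratoma, 7.01 ± 2.15 in adult and 71.3 ± 15.3 in embryo. It differed between transplant and teratoma by -3.71 and between teratoma and adult by 3.29 (adjusted p = 1.39e-05 and 5.94e-06), and was not called between teratoma and embryo (0.10, adjusted p = 0.838). Erbb3, a neuregulin receptor, was also high in both teratoma and embryo, at 0.559, 0.0343 and 0.691 in transplant, 5.44, 4.66 and 6.79 in teratoma, 0.0691, 0.198 and 0.102 in adult and 3.87, 3.69 and 10.7 in embryo.

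Liver and yolk sac genes other than Ttr and Alb were mostly low. Of 24 measured, 5 passed the filter and 8 averaged 1 FPKM or more in teratoma. Afp, the neighbour of Alb and the fetal counterpart of albumin, was at 0.930, 0.127 and 0 in teratoma and listed at 0 in the other 9 libraries. Ambp, for a plasma inhibitor precursor of liver, was at 1.31, 6.60 and 0.559 in teratoma only, and Fgb, for a fibrinogen chain, reached 6.24 in teratoma replicate 3 and 0.539 or less elsewhere. Afp, Ambp and Fgb were singled out after their values were seen. Apoe, a lipoprotein made by liver and many other cells, averaged 163 ± 60.7 FPKM in transplant, 216 ± 41.7 in teratoma, 302 ± 33.6 in adult and 21.8 ± 4.18 in embryo, highest in adult. Trf, for transferrin, was the 1 gene of the 5 called in transplant against teratoma, where 18.5% of all genes were called lower. Trf was at 1.60, 1.68 and 0.635 in transplant and 3.70, 10.7 and 6.74 in teratoma (log2 change -1.74, limma adjusted p = 0.0254). Its call was lost without transplant replicate 1 or 3 or teratoma replicate 2 or 3 (adjusted p = 0.0534, 0.0851, 0.0931 and 0.0591, alternatives from 0.00717 to 0.0931).

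Endodermal regulators were at low levels too. Of 18 factors, 3 passed the filter. Foxa1, a pioneer factor of endodermal organs, was at 0.184, 1.16 and 0.452 FPKM in transplant, 7.23, 7.33 and 3.25 in teratoma, 0, 0.0690 and 0.0734 in adult and 0.0524, 0.0893 and 0 in embryo. It was lower in transplant than in teratoma by a log2 change of -2.10 (limma adjusted p = 0.000701) and higher in teratoma than in adult by 2.66 (adjusted p = 4.57e-05). Foxa1 reached 1 FPKM outside teratoma only in transplant replicate 2, so it passed the filter with the teratoma libraries and these calls support nothing. Gata6, a factor of endoderm and heart, was at 2.96, 2.53 and 0.751 in transplant and 2.75, 4.34 and 3.16 in teratoma, with overlapping groups, against 0, 0.891 and 0.257 in adult and 5.88, 2.40 and 11.6 in embryo. Foxa2 (0.833, 1.42 and 0.414 in teratoma) and Hnf4a (0.639, 1.17 and 0) stayed under the filter, and the intestinal factor Cdx2 was listed at 0 in all 12 libraries. These 3 were named after their values were seen.

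Of 27 gut genes measured, 11 passed the filter, 6 were lower in transplant than in teratoma, 11 were higher in teratoma than in adult and 8 were higher than in embryo. Without the 3 that passed through teratoma alone, these counts were 3, 8 and 5 of 8, beside 18.5%, 36.4% and 15.5% of all genes. The trefoil factors Tff1 and Tff2, made by mucous cells of the stomach, were listed at 0 in all 9 other libraries and at 6.81, 14.6 and 37.5 and at 10.6, 13.3 and 9.46 FPKM in teratoma. Tff1 had its highest value in teratoma replicate 3, unlike 9 of the 10 members, which were lowest there. Agr2, a disulfide isomerase that mucus-making cells need, was at 0, 1.11 and 0 in transplant, 32.0, 15.0 and 3.30 in teratoma and 0 in all adult and embryo libraries (transplant against teratoma, limma adjusted p = 0.00167). It reached 1 FPKM outside teratoma only in transplant replicate 2, so it passed with the teratoma libraries and its call supports nothing. Ceacam1, an adhesion glycoprotein of epithelia and leukocytes, was at 0.234, 0.257 and 0.322 in transplant and 20.6, 15.4 and 5.12 in teratoma (log2 change -3.35, adjusted p = 0.000161), and Dmbt1, a mucosal scavenger protein, was listed at 0 in transplant and at 4.30, 25.0 and 3.76 in teratoma. Of genes known from absorptive enterocytes, Vil1 and Fabp2 were listed at 0 in all 12 libraries and Fabp1 reached 0.566 FPKM in teratoma replicate 1 alone, all 3 singled out after their values were seen. Relatives of Reg3g stayed low, since none of 6 passed the filter. Reg3b, which encodes a similar lectin, was at 0.725, 7.85 and 2.48 in teratoma, highest in replicate 2, where Reg3g was highest in replicate 1. It was named after its values were seen.

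Of 15 airway and ciliated cell genes measured, 6 passed the filter, 4 of them through teratoma alone. Of the 2 left, Foxj1 reached 1 FPKM outside teratoma only in transplant replicate 2. It too passed with the teratoma libraries, so its calls against teratoma support nothing. Only Cyp2f2 would have passed without them. Bpifa1, a secreted airway defence protein, was listed at 0 in transplant and at 11.4, 55.1 and 18.1 FPKM in teratoma, and Muc5b, an airway mucin, was at 0.00934, 0 and 0.157 in transplant and 8.88, 10.1 and 1.95 in teratoma. Foxj1, which drives the making of motile cilia, was at 0.398, 1.04 and 0.0586 in transplant and 8.15, 6.71 and 3.29 in teratoma, a log2 change of -2.22 (SE 0.33, limma adjusted p = 0.000747). Cyp2f2, an enzyme of club cells, was at 0.478, 0.367 and 1.10 in transplant, 31.7, 34.9 and 10.3 in teratoma and also 14.3, 7.55 and 4.93 in adult, where no other gene of the list reached 1 FPKM. It was lower in transplant than in teratoma by a log2 change of -3.87 (SE 0.45, adjusted p = 0.000161) and higher in teratoma than in adult by 1.36 (SE 0.45, adjusted p = 0.0262). The call against adult was lost without teratoma replicate 1 or 2 or adult replicate 2 or 3 (adjusted p = 0.0943, 0.106, 0.0684 and 0.105), and with median-ratio scaling (0.0710), with alternatives from 0.00284 to 0.107. Motile cilia also occur on ependyma of brain and on oviduct, so the list does not name an organ.

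**Figure D4:**
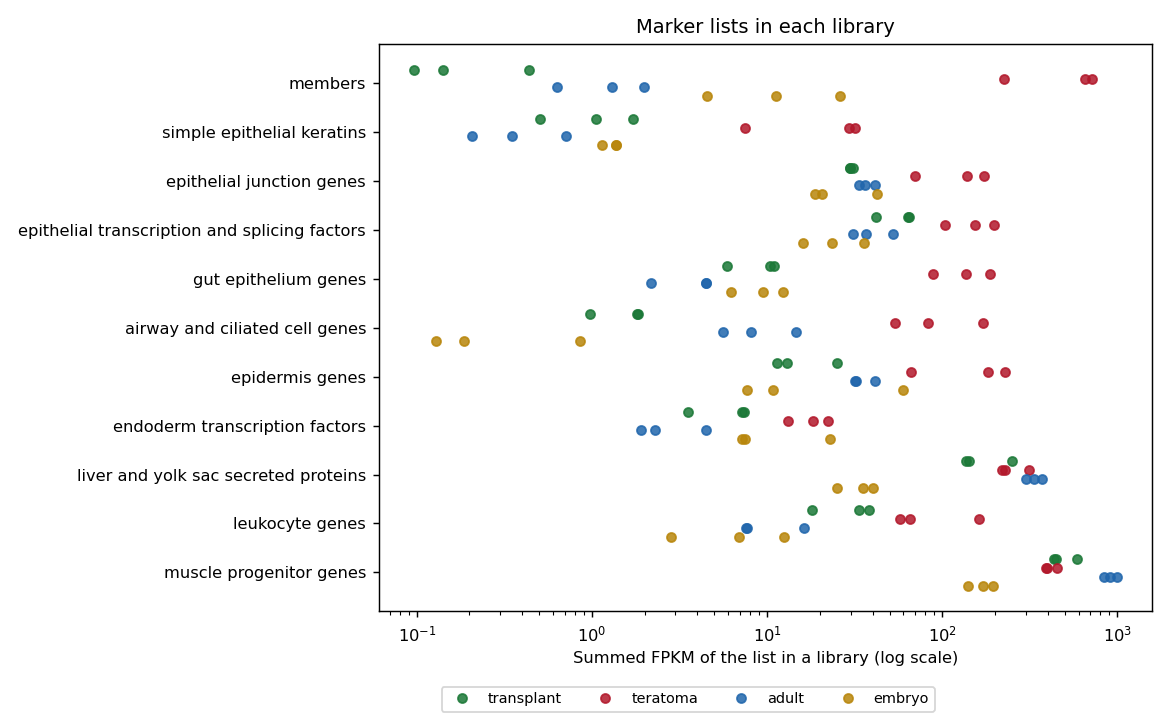
Summed FPKM of 11 marker lists (rows) in each library (points; horizontal axis, log scale), coloured by group. The members' sums in teratoma (225 FPKM or more) lie above those of every other group (26.0 or less), as do the gut and airway sums, while muscle progenitor genes overlap between transplant and teratoma.

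Other sources of the same transcripts were read by their own markers, and their part in the members' levels was not tested. Choroid plexus genes, which bear on Ttr, summed to 31.1, 23.4 and 22.4 FPKM in transplant, 42.0, 43.6 and 29.2 in teratoma, 20.6, 21.7 and 19.6 in adult and 12.5, 7.62 and 15.0 in embryo, carried mostly by Aqp1 and Enpp2, which other tissues also make. Some more specific genes, all named after their values were seen, were low and uneven in teratoma. Kcnj13 was at 5.64, 1.29 and 0.139, Folr1 at 1.798, 1.37 and 0, Otx2 at 0.220, 0.235 and 1.95 and Kl at 0, 0.147 and 0.428. Of 6 that passed the filter, 2 were lower in transplant than in teratoma, beside 18.5% of all genes. In teratoma, 1 was higher than in adult and 3 were higher than in embryo, beside 36.4% and 15.5% of all genes. Of 13 choroid plexus genes measured, 5 had every teratoma library above all others, beside 4.4% of all genes tested. Pancreas genes summed to 1.05, 0.678 and 2.36 in transplant, 6.41, 10.9 and 17.3 in teratoma, 0.395, 0.215 and 0 in adult and 0.751, 3.40 and 9.87 in embryo. Of the 2 tested, 1 was called lower in transplant than in teratoma, Cpa1 (-1.41, limma adjusted p = 0.0389), beside 18.5% of all genes. The Cpa1 call was lost without transplant replicate 1, 2 or 3, teratoma replicate 1 or 3 or adult replicate 1, 2 or 3 (adjusted p from 0.0527 to 0.140, all alternatives from 0.0134 to 0.140).

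Undifferentiated stem cells also express Cdh1, Epcam and Krt8. Of 10 pluripotency genes, 6 were listed at 0 in all teratoma libraries, Pou5f1 and Zfp42 among them, which were singled out after their values were seen. The list summed to 0.446, 0.266 and 0.429 FPKM in transplant, 5.24, 4.30 and 1.07 in teratoma, 0.142, 0.357 and 0.943 in adult and 1.71, 1.32 and 2.06 in embryo. Most of that in teratoma was Sox2, which neural and foregut epithelial cells make as well, at 0.116, 0 and 0 in transplant and 4.42, 4.16 and 1.07 in teratoma (limma adjusted p = 0.0021). Mesothelium, which has simple keratins but is mesodermal, gave Msln at 0.943, 0 and 0.303 in transplant and 8.05, 7.87 and 2.62 in teratoma (adjusted p = 0.0019). Msln needed the teratoma libraries to pass the filter, so this call supports nothing. Igfbp6 of the same list went the other way, at 95.6, 116 and 73.0 in transplant and 4.48, 12.4 and 9.14 in teratoma, a log2 change of 3.38 (SE 0.47, adjusted p = 0.000506).

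Markers of other cell types varied too. Gfap, the filament protein of astrocytes, was at 0.0923, 0.0481 and 0.190 FPKM in transplant, 47.4, 56.9 and 26.6 in teratoma, 0.364, 0.176 and 0.569 in adult and 0 in all embryo libraries, and passed the filter through teratoma alone. The rest of the neural list did not share this pattern: of the 6 others tested, limma called 2 lower in transplant than in teratoma, Nes and Stmn2, beside 18.5% of all genes. The Nes call was lost without transplant replicate 1 or 3 or teratoma replicate 1 (adjusted p = 0.0848, 0.0664 and 0.0983, alternatives from 0.0179 to 0.129). The Stmn2 call was also lost under some alternatives (limma adjusted p from 0.00465 to 0.106). Of 13 neural genes measured, 1 had every teratoma library above all others, beside 4.4% of all genes tested. In teratoma against embryo the median log2 change of the 7 tested was -0.49, and Sox10 was called lower (-1.46, adjusted p = 0.00444). Endothelial genes, against which the CD31 gate selects, were called lower in transplant than in teratoma for 6 of 8, beside 18.5% of all genes. Cdh5, for VE-cadherin, was at 2.87 ± 0.0240 in transplant, 18.7 ± 2.00 in teratoma, 4.80 ± 1.13 in adult and 7.12 ± 3.01 in embryo (SD, n = 3). Its log2 change between transplant and teratoma was -2.34 (limma adjusted p = 0.000122). Of 8 leukocyte genes tested, 2 were called lower in transplant than in teratoma, Laptm5 and Tyrobp, a share near the 18.5% of all genes. All 10 leukocyte genes measured summed to 33.4, 38.0 and 18.0 in transplant, 65.3, 57.5 and 163 in teratoma, 7.55, 7.67 and 16.3 in adult and 2.84, 12.4 and 6.88 in embryo, each transplant library above each adult library. Laptm5 lost its call without transplant replicate 3 or teratoma replicate 3 (adjusted p = 0.0716 and 0.0652, alternatives from 0.0110 to 0.135). Tyrobp lost it without transplant replicate 2 or 3, teratoma replicate 1 or 3, adult replicate 1, 2 or 3 or embryo replicate 1 or 3 (adjusted p from 0.0503 to 0.115, alternatives from 0.0176 to 0.134).

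Genes of stratified epithelium, such as epidermis, were read beside the members. Of 13 epidermis genes that passed the filter, 8 were lower in transplant than in teratoma, 9 higher and 1 lower in teratoma than in adult and 8 higher than in embryo. Without the 1 that passed through teratoma alone, 7 of 12 were lower in transplant, 8 higher in teratoma than in adult and 7 higher than in embryo. The shares of all genes were 18.5%, 36.4% and 15.5%. Krt15, a type I chain of basal cells that lies 4881 bases from Krt19, was listed at 0 in transplant and adult, at 29.1, 34.4 and 6.34 FPKM in teratoma and at 0.292, 0.866 and 5.005 in embryo. Sfn, for stratifin of keratinocytes, was at 0.277, 0.971 and 1.21 in transplant and 47.2, 64.4 and 15.4 in teratoma (log2 change -4.39, limma adjusted p = 0.000665). The basal pair Krt5 and Krt14, however, was measurable in transplant replicate 2, at 4.05 and 6.47, against 0.167 and 0.963 in replicate 1 and 0 and 0.293 in replicate 3. In teratoma Krt5 was at 18.8, 18.9 and 6.35 and Krt14 at 18.7, 24.2 and 5.41. Perp, a desmosomal protein, was at 1.49, 5.004 and 1.55 in transplant and 20.2, 27.4 and 8.06 in teratoma, again highest in that transplant library.

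Krt5 fell by 2.98 in transplant against teratoma (SE 0.73, limma adjusted p = 0.0128), Krt14 fell by 2.46 (SE 0.82, adjusted p = 0.049) and Perp fell by 2.39 (SE 0.64, adjusted p = 0.0196). Krt5 lost its call without transplant replicate 1 or 3 or teratoma replicate 1 (adjusted p = 0.0534, 0.0508 and 0.0579, alternatives from 0.00427 to 0.0579). Krt14 lost it without transplant replicate 1 or 3, teratoma replicate 1 or 2 or adult replicate 1, 2 or 3 (adjusted p from 0.0628 to 0.160, alternatives from 0.0184 to 0.160). Perp lost it without transplant replicate 1 or 3 or teratoma replicate 1 or 2 (adjusted p = 0.0714, 0.0634, 0.0747 and 0.0730, alternatives from 0.00486 to 0.0747). In the same library the members stayed at 0.0963 FPKM in sum, all of it Krt8, while the gut gene Agr2 was at 1.11. Values of both keratins above 1 FPKM were thus seen in 1 transplant library of 3, and host and donor cells cannot be told apart there.

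Few panel genes were called between transplant and the groups of native muscle cells. The 12 that passed through teratoma alone were under 1 FPKM in every library of these groups, which left little to call. Few calls therefore do not show that the groups are alike. In transplant against adult, 3 of 60 were called higher and 6 lower (limma), against 27.3% and 16.9% of all genes. Without the 12, the calls were the same, 3 and 6 of 48. The 3 higher were Jup, Lgals4 and Sdc1, named after their values were seen, with Lgals4, for an intestinal galectin, at 4.28, 2.42 and 2.98 FPKM in transplant and 0.500, 0 and 0 in adult. In transplant against embryo, 5 were higher and 9 lower, against 14.9% and 27.6%, and the same 5 and 9 of 48 without the 12. The 5 higher were Apoe, Vtn, Klf5, Jup and Lgals4, and the largest fall was that of Cd24a, by 3.61 (SE 0.28, adjusted p = 1.88e-06). Of the mesenchymal genes, the Cdh1 repressors Snai1 and Zeb1 and the filament gene Vim were above 0 in all 12 libraries. Snai1 averaged 41.1 ± 6.03 FPKM in transplant, 29.2 ± 4.45 in teratoma, 9.31 ± 4.02 in adult and 37.3 ± 2.04 in embryo, Zeb1 11.5 ± 0.436, 8.14 ± 0.748, 5.49 ± 0.478 and 11.5 ± 1.99 in the same groups, and Vim, for vimentin, 575 ± 67.1, 626 ± 35.3, 465 ± 24.0 and 328 ± 21.8 (SD, n = 3). Of the 8 mesenchymal genes, 1 was called in transplant against teratoma, and it was lower, beside 18.5% of all genes. It was Twist2, at 2.03, 0 and 0.959 in transplant and 4.70, 9.76 and 8.93 in teratoma (-2.23, limma adjusted p = 0.0131), and was not called without transplant replicate 2 (adjusted p = 0.0511, alternatives from 0.00829 to 0.0604).

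**Figure D5:**
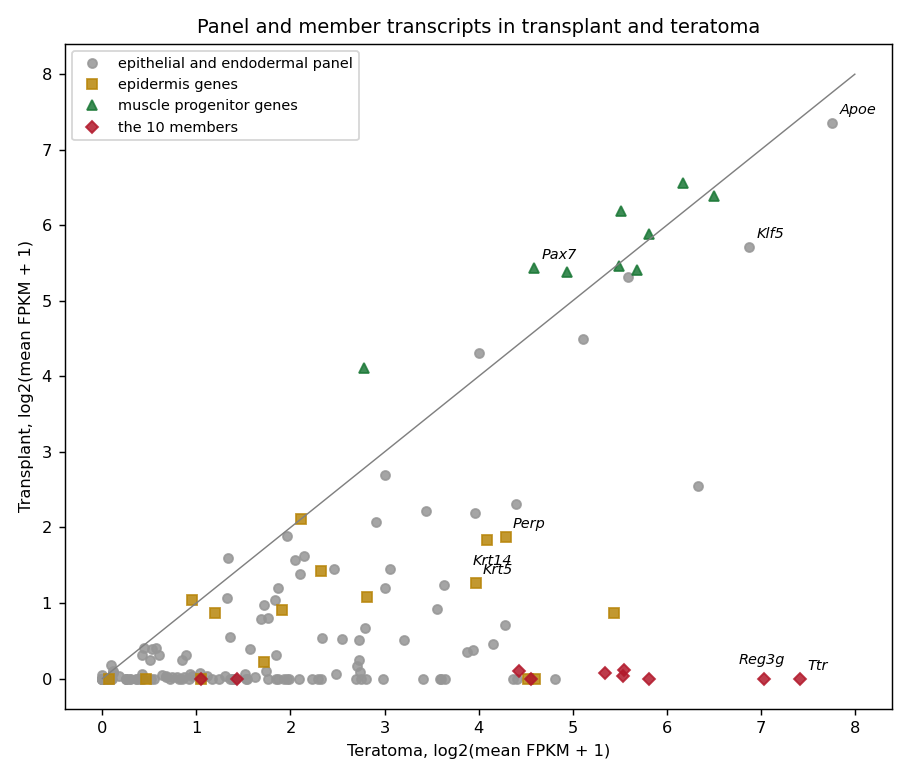
Mean level in transplant (vertical axis) against mean level in teratoma (horizontal axis), both as log2(mean FPKM + 1), for the members (red diamonds), the panel (grey circles), epidermis genes (gold squares) and muscle progenitor genes (green triangles); the line marks equal levels. The members lie along the bottom edge, Krt5, Krt14 and Perp stand above it, and muscle genes lie about the line, with Pax7 above it.

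Muscle genes were read for scale. Pax7 averaged 42.3 ± 11.5 FPKM in transplant, 23.1 ± 2.72 in teratoma, 9.11 ± 0.916 in adult and 14.0 ± 0.875 in embryo. Of the 9 muscle progenitor genes, 3 were called higher in transplant than in teratoma, beside 4.18% of all genes. They were Pax7 by 0.82, Chrna1, for a subunit of the acetylcholine receptor, by 1.32 and Cdh15, for M-cadherin, by 0.66 (limma adjusted p = 0.0103, 0.00517 and 0.0384). The Cdh15 call was lost without transplant replicate 1 or 3, teratoma replicate 1 or 2 or adult replicate 2 (adjusted p = 0.104, 0.139, 0.140, 0.0820 and 0.0527, alternatives from 0.0191 to 0.140). The sum over the list was 436, 448 and 585 in transplant and 451, 398 and 391 in teratoma, against a members' sum that was at most 0.435 in transplant and at least 225 in teratoma.

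Genes with the profile most like the members were sought over all 12 libraries, by the root mean square difference of log2(FPKM + 1), each gene centred on its own mean, from the members' mean profile, among 12690 other genes. The measure describes likeness and, since it includes the levels that chose the members, carries no test. Among the 10 nearest were Wfdc2 (0.483), Krt15 (0.494), Psca (0.541), Pglyrp1 (0.549), Sfn (0.557), Cym (0.568), Sprr1a (0.575), Gfap (0.606) and Ltf (0.611). The 9 tested members themselves lay from 0.358 (Krt18) to 1.4997 (Alb) from their own mean, with Ttr at 1.23 and Reg3g at 0.973. Wfdc2, for a secreted protein of reproductive tract and airway epithelium, was at 0.557, 0 and 0 FPKM in transplant and 23.6, 33.2 and 5.74 in teratoma. Psca, a surface antigen of prostate, bladder and stomach epithelium, was at 18.0, 20.3 and 6.96 in teratoma, and Cym, for the milk-clotting stomach protease chymosin, at 61.1, 23.2 and 17.4, and both were listed at 0 in the 9 other libraries. Ltf, for lactoferrin of glands and neutrophils, was at 24.4, 32.8 and 3.28 in teratoma and at 0 elsewhere. Predicted genes were left out of these 10, which removed 1.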

How the data were processed

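Expression was measured by RNA sequencing in 12 libraries of sorted cells. The authors deposited FPKM for every gene and library in a single table, made with CASAVA 1.8.2, TopHat 0.7, Cufflinks 2.2.1.0 and Partek on mm10, per the submitters' processing notes. The values hold no whole-read steps from which depth could be had, so no counting intervals are given. Of 23746 entries, 462 repeated a symbol and were summed by symbol (240 symbols), which left 23284. The 12699 genes that reached 1 FPKM in 3 or more libraries were tested on log2(FPKM + 1), a scale that understates the change of low genes. The test was limma 3.58.1 (R 4.3.3): 1 fit over 4 groups, empirical Bayes moderation with a trend, Benjamini-Hochberg adjustment within each comparison over all tested genes, and a call at an adjusted p under 0.05. The design text calls the replicates biological, and the p-values rest on the variation among them alone.

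The members and the marker lists were chosen with earlier results of these data known; 265 of 267 listed symbols were measured. Named genes are the members, up to 4 called genes per list with the largest absolute change in each comparison with teratoma, the 10 genes most like the members, and genes named after their values were seen: Jup, Lgals4, Sdc1, Zeb1 and those so marked in the text. A few genes of these lists are not reported here. Positions come from GENCODE M21 on GRCm38. Promoters come from RefSeq, and motif letters were counted on both strands. The alternatives were another pseudocount (0.1), no filter or a mean of 5 FPKM in some group, median-ratio and quantile scaling, a fit of 2 groups, a replicate term and leaving out each library. The fit was tested on simulated data. Python 3.11.15 with pandas 2.3.3, numpy 2.4.6 and matplotlib 3.10.9 was used.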

Additional observations from a re-analysis of the deposited data

How the results depend on the processing

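No gene result reversed under any alternative run: of 265 called gene results, 201 stayed called under each alternative that gave them a value (18 to 22 of these per result), and 395 of 5621 recomputed values lost the call. Panel genes called in teratoma against adult numbered 34 when the filter was a mean of 5 FPKM, which left 39 panel genes to test. In transplant against adult they numbered 14 with a pseudocount of 0.1 and 14 with only the 2 groups compared in the fit, against 9. Leaving out 1 library at a time gave 17 to 42 calls in transplant against teratoma, 30 to 52 in teratoma against adult, 21 to 39 in teratoma against embryo, 7 to 11 in transplant against adult and 12 to 16 in transplant against embryo. The low ends came without teratoma replicate 1 or 2, when 44 panel genes reached the filter. With the 12-library filter kept, an alternative added after seeing the data, the counts without teratoma replicate 1, 2 and 3 were 32, 30 and 40, then 43, 44 and 50, then 36, 33 and 41 in those first 3 comparisons. With the replicate number as a block the counts were 36, 51, 38, 9 and 13, against 40, 52, 40, 9 and 14. Samples of the same number did not deviate together (correlations from -0.095 to 0.096, 13 of 36 highest with the own number). Whether samples of the same number share an origin cannot be read from these correlations. Depth is not known and limits what a listed 0 can show.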
